A study of Homo sapiens with 2 samples.

Results

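The lysyl oxidase family has 5 members in human cells, LOX and LOXL1 to LOXL4, and it was described here through the probe sets annotated to exactly 1 of these symbols. That rule found 11 probe sets of 54613 on each array, and all 5 genes of the 19775 that had a single-gene probe set were covered. LOX had 3 probe sets, LOXL2 had 4, LOXL4 had 2, and LOXL1 and LOXL3 had 1 each. Of the 1801 probe sets annotated to several genes, 0 named a member. Members were chosen by gene name, with earlier results of these data known. With 1 array per line, LOX was at least 2.35-fold lower on the array labelled 786-VHL on its brightest probe set. Its other probe sets gave at least 1.66-fold and 1.01-fold. These are bounds with 16 added to each value, chosen after the data were seen, because LOX was above background in 786-O only. LOXL1 was 2.32-fold lower on its single probe set, and measured probe sets of LOXL2, LOXL3 and LOXL4 were at most 1.23-fold apart.

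Lysyl oxidases are secreted, copper-dependent amine oxidases that convert lysine side chains of collagen and elastin to reactive aldehydes, which then condense into the cross-links that make extracellular matrix stiff and insoluble. LOX and LOXL1 are made as proenzymes with an amino-terminal propeptide, while LOXL2, LOXL3 and LOXL4 carry scavenger receptor cysteine-rich domains in its place. LOX is a known target of hypoxia-inducible factors, and in clear-cell kidney cancer, where loss of VHL leaves HIF alpha subunits undegraded, lysyl oxidases have been studied for their part in matrix stiffening and invasion.

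The study compared 786-O, an established human renal cell carcinoma line with a mutated VHL gene, with 786-VHL, a line derived from it that holds a working VHL allele. Each line gave 1 array, so the comparison has n = 1 per group, no replicate and no test. From each line 10 ug of total RNA, labelled with biotin, went onto an Affymetrix expression array. No drug, infection, oxygen tension or time is named in the labels of these samples, and whether 786-VHL is a single clone is not given in the sources used here. The comparison bears on the question of which genes depend on functional VHL, which 1 array per line cannot settle.

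The probe sets report a summed fluorescence intensity in arbitrary units. The median over all probe sets was 21.97 in 786-O and 22.58 in 786-VHL, and having so few arrays sets the precision. A value was treated as above background where it exceeded 22.3, the median of both arrays pooled, called the floor here, and a probe set counted as measured where its higher value did so. Differences are log2(786-VHL + 16) minus log2(786-O + 16), so a negative difference is lower on the array labelled 786-VHL, and folds on this scale understate the difference of dim probe sets. Probe sets of 1 gene differed among themselves with an SD of 0.328 log2 units over 6436 genes, the only error that can be seen here, and it leaves out the spread between cultures and arrays. The single measured VHL probe set had 28.9 in 786-O and 15.96, below the floor, in 786-VHL, a difference of -0.49. It counted as measured through its 786-O value alone, so it had to be lower on the array labelled 786-VHL and cannot check the labels. The other VHL probe set, with 6.32 and 7.96, did not reach the floor on either array. Whether these probes match the introduced VHL sequence is not given in the sources used here, so every direction rests on the labels, and 786-O and 786-VHL stand below for the arrays labelled so.

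Markers were read once for the identity of the cells. The kidney developmental factors PAX8 and PAX2 were above the floor in both lines, at 1521 and 1068 for PAX8 and 102 and 106 for PAX2, each in the order 786-O and 786-VHL. ANPEP, a brush-border enzyme gene of the same list, went the other way from PAX8, at 256 and 535, a difference of 1.02. Of 9 kidney tubule markers 6 were above the floor, and AQP1, CUBN and LRP2, markers of mature proximal tubule, were below it on both arrays. Of 5 epithelial markers 4 were above the floor, with CDH1 below it, and the keratin gene KRT19 differed by 0.96. The leukocyte markers were below the floor in 4 of 4 cases. Of 7 fibroblast and pericyte markers 4 were above the floor on at least 1 array, with DCN, PDGFRA and PDGFRB below it, and the summed intensity of the list was 287.9 in 786-O and 287.3 in 786-VHL. Its members went both ways, LUM from 5.64, below the floor, to 37.1, ACTA2 with a difference of -0.33 and RGS5 with -0.40. Of 5 endothelial markers 1 was above the floor in 786-O and 3 in 786-VHL, with CDH5 and KDR below it on both. These 3 lay near the floor of 22.3, PECAM1 at 21.1 and 26.7, TEK at 23.6 and 27.2 and VWF at 19.9 and 28.9. The sums of the list were 86.5 and 107. The part of these markers in the results was not tested. In bulk RNA, fewer cells that make a transcript and less of it per cell cannot be told apart.

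Promoter sequence is shown for the members that were more than 2-fold apart, LOX and LOXL1, because HIF binds a short core of letters, the hypoxia response element, in the DNA of its targets. The 250 bases before the outermost annotated start come from RefSeq (GRCh38.p14), at chr5:122078260-122078509 on the minus strand for LOX and chr15:73926212-73926461 on the plus strand for LOXL1. They are printed 5′ to 3′ along the gene, and capitals mark ACGTG or GCGTG on either strand, so that CACGT and CACGC are their reverse complements.
LOX: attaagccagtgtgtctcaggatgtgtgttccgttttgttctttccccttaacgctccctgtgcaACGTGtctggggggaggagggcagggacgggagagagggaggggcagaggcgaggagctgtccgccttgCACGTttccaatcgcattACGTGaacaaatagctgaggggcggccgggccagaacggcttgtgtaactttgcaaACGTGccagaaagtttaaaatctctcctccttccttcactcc
LOXL1: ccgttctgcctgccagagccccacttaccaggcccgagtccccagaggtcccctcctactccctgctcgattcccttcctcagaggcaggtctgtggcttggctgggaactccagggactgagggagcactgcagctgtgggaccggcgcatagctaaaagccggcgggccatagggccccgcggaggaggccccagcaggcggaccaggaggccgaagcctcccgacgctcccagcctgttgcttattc
The LOX window held 4 matches to ACGTG, beginning at positions -185, -116, -98 and -42 counted back from the start, the second of them as the reverse complement, and 0 matches to GCGTG. The matches did not overlap. The windows before the other 2 annotated LOX starts, at chr5:122077224-122077473 and chr5:122077175-122077424, overlap each other and each held 1 match to ACGTG and 1 to GCGTG. The LOXL1 window held 0 matches to either. Of 35116 annotated start windows of this length 18.5% held ACGTG, 32.2% held GCGTG and 43.2% held at least 1 of them, on either strand. At least as many ACGTG matches as in the LOX window were held by 0.669%. That threshold is the count of LOX itself, which was picked for its difference, so this share is a description only. The LOXL4 window before its outermost start, and the first of the 2 LOXL3 windows, held 0 matches to either motif. The second LOXL3 window held 0 matches to ACGTG and 1 to GCGTG. No window of LOXL2 was used here. These matches are letters in a window and show neither binding nor a cause.

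LOX, the founding member, was above the floor on the 786-O array only, and this held for 3 of its 3 probe sets. Probe set 215446_s_at read 74.0 in 786-O and 7.44 in 786-VHL. Probe set 204298_s_at had 47.6 and 8.49. Probe set 213640_s_at had 22.6, just above the floor, and 8.80. The 786-VHL values sat deep in the low range of that array, where 12.0%, 17.7% and 19.3% of all probe sets were lower still, so LOX had no level there that could be told from background. Each LOX probe set counted as measured through its 786-O value alone, which means that it had to be lower on the array labelled 786-VHL.

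The log2 differences of LOX were -1.94, -1.38 and -0.64 in the same order, a range of 1.30 between probe sets of 1 gene, and their size depends on the pseudocount because 1 side lies below the floor. With the 786-VHL array set to the floor, a bound chosen after the data were seen, LOX was at least 2.35-fold lower on 215446_s_at, at least 1.66-fold lower on 204298_s_at and at least 1.01-fold lower on 213640_s_at. All 3 carry the suffix _s_at, which marks probe sets whose probes can match more than 1 transcript. By the bound at the floor only 215446_s_at was past 2-fold, with 1 array per line. With a pseudocount of 64 the difference of LOX on its brightest probe set was -0.95, no longer 2-fold, and with a pseudocount of 1 it was -3.15.

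LOXL1, the closest relative of LOX and the member most tied to elastic fibre upkeep, was above the floor in both lines. Its single probe set, 203570_at, read 541 in 786-O and 224 in 786-VHL, a difference of -1.21 or 2.32-fold lower on the array labelled 786-VHL. Because both values lay far above the floor, the difference ranged only from -1.27 to -1.07 over the alternatives tried and was at least 2-fold in each of them. Of the 24414 measured single-gene probe sets 388 (1.59%) were as low or lower. LOXL1 had no other probe set against which this value could be set. The antisense transcript LOXL1-AS1, which is no member and was looked at after the values were seen, was also lower on the array labelled 786-VHL, at 203 against 127, a difference of -0.62.

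**Figure D1:**
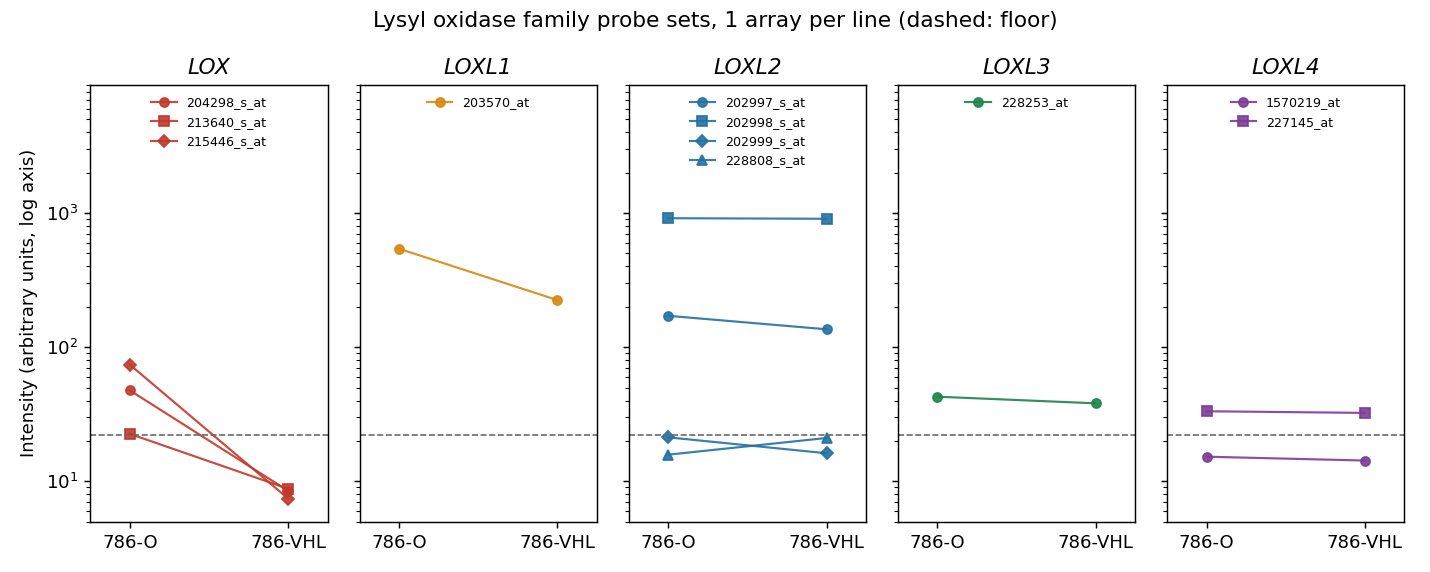
Intensity (log axis, arbitrary units) of each of the 11 lysyl oxidase family probe sets in 786-O and 786-VHL, 1 panel per gene and 1 line per probe set, with the floor of 22.3 dashed. The 3 LOX lines drop from above the floor to 7.44 to 8.80, LOXL1 goes from 541 to 224, and the lines of LOXL2, LOXL3 and LOXL4 are close to level.

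LOXL2, which cross-links type IV collagen of basement membranes and also acts with SNAI1 in the nucleus, had nearly equal values in the lines on its brightest probe set. Probe set 202998_s_at read 914 in 786-O and 905 in 786-VHL, a difference of -0.01. Probe set 202997_s_at had 171 and 136, a difference of -0.30, which is smaller than the SD between probe sets of 1 gene. The remaining LOXL2 probe sets were below the floor on both arrays, 202999_s_at at 21.2 and 16.2 and 228808_s_at at 15.8 and 21.0, and they differed in opposite directions. The antisense transcript LOXL2-AS1, also looked at afterwards, had 23.2 and 23.7.

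LOXL3, which is needed for palate and spine development in mice, lay a little above the floor in both lines. Its probe set 228253_at had 42.7 in 786-O and 38.1 in 786-VHL, a difference of -0.12. LOXL4, the remaining member with scavenger receptor domains, had 33.3 and 32.3 on probe set 227145_at, a difference of -0.03, and 15.2 and 14.3, below the floor, on 1570219_at. The measured probe sets of LOXL2, LOXL3 and LOXL4 thus ranged from -0.30 to -0.01, each within 1 SD between probe sets of a gene.

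Of the 11 probe sets 8 were measured and 3 were below the floor on both arrays. Of the 8, 3 had a difference of at least 2-fold towards lower values in 786-VHL, 2 of LOX and 1 of LOXL1, and 0 were at least 2-fold higher. Over all 24414 measured single-gene probe sets, 2.70% were at least 2-fold lower and 1.42% at least 2-fold higher. By the bound with values below the floor set to the floor and the pseudocount of 16 kept, 2 of the 3 were still at least 2-fold lower. These were 1 each of LOX and LOXL1. Differences below 0 were found in 8 of the 8 measured member probe sets, against 44.1% of all measured probe sets. The probe sets of 1 gene share their transcript, and the LOX values had to be negative, so these counts are a description only.

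**Figure D2:**
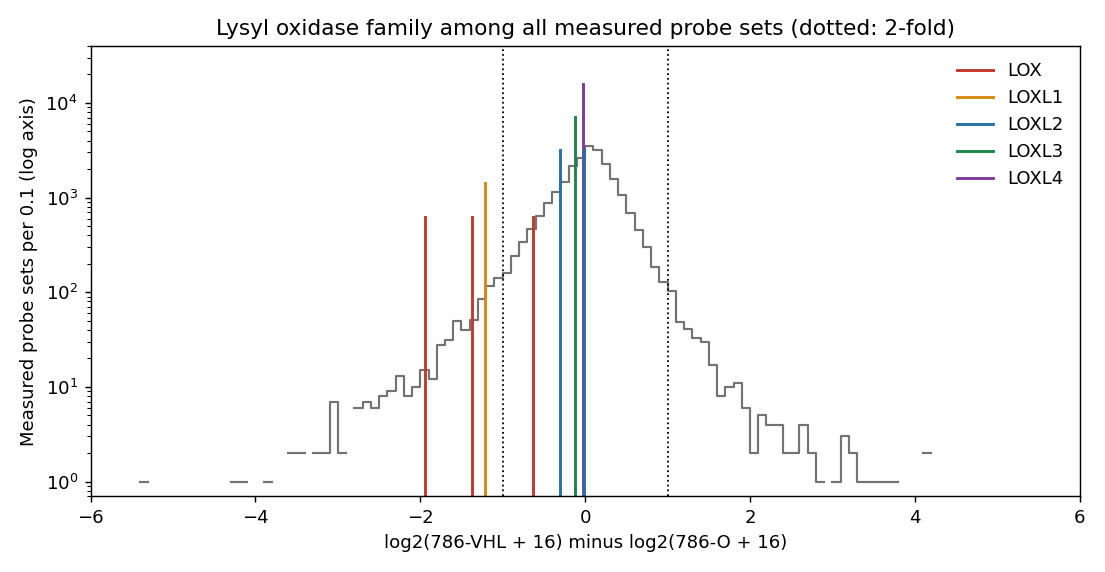
Number of measured probe sets per 0.1 of log2 difference (log axis) for all 24414 single-gene probe sets, with a coloured line at each of the 8 measured lysyl oxidase family probe sets and dotted lines at 2-fold. LOXL1 lies at -1.21. The LOX lines at -1.94, -1.38 and -0.64 have a 786-VHL value below the floor. By their bounds, which keep the pseudocount of 16, only the first is past 2-fold. The other lines lie between -0.30 and -0.01, and the height of lines has no meaning.

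The genes on either side of each member were read to see whether a stretch of chromosome differed with it, using gene order of the GRCh38.p14 annotation only. The median difference of the 30 nearest measured genes, 15 on each side, was -0.03 around LOX and 0.07 around LOXL1. It was -0.04 around LOXL2, 0.03 around LOXL3 and 0.20 around LOXL4. Over 12563 genes the central 95% of such medians ran from -0.23 to 0.30, so each member lay among neighbours with medians inside that range.

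Proteins that activate lysyl oxidases or place them in the matrix were next. Of 14 genes in that list 11 were measured, 2 were at least 2-fold lower on the array labelled 786-VHL and 0 at least 2-fold higher, with a median of 0.01. Over all 13291 measured genes 2.18% were at least 2-fold lower and 1.54% at least 2-fold higher, with a median of 0.05. This list and those below were chosen with earlier results of these data known, so their counts are a description only. EFEMP2, which encodes fibulin-4, a protein that binds the LOX propeptide and brings the enzyme to elastic fibres, had 487 in 786-O and 74.0 in 786-VHL on probe set 209356_x_at. Its other probe set, 206580_s_at, had 347 and 71.8, so the differences were -2.48 and -2.05. Both EFEMP2 probe sets were above the floor in both lines, and the median of its 30 neighbours was -0.05. Without probe sets whose suffix is _s_at, _x_at or _a_at, 0 genes around the family were at least 2-fold lower. EFEMP2 has no other probe set, and THBS1 was then represented by its brightest remaining probe set, 235086_at, at -0.47. Another THBS1 probe set without these suffixes, 239336_at, differed by -1.54, at 61.1 in 786-O and 10.5, below the floor, in 786-VHL. That probe set counted as measured through its 786-O value alone, so it had to be lower on the array labelled 786-VHL.

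THBS1, which encodes the matrix glycoprotein thrombospondin-1, had 5049 in 786-O and 1415 in 786-VHL on its brightest probe set, a difference of -1.82. Its 6 other probe sets were lower on the array labelled 786-VHL too, from -2.39 on 201107_s_at to -0.10 on 215775_at, the latter below the floor. BMP1, the protease that cuts the LOX propeptide off, was slightly higher on the array labelled 786-VHL, at 88.6 against 136.7 in the order 786-O and 786-VHL, a difference of 0.55. Its other measured probe sets lay between 0.10 and 0.65. PCOLCE, an enhancer of BMP1 towards procollagen, had 22.8 and 41.0, a difference of 0.56. FN1, the fibronectin gene, whose product binds LOX and supports its activation, was bright in both lines, at 9394 and 8896, a difference of -0.08. POSTN, which encodes periostin, another scaffold for that activation, was below the floor on 4 of 4 probe sets.

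The substrates of the enzymes were read in separate lists by type. Of 13 genes for fibrillar collagens, elastin and microfibrils 6 were measured and 0 were 2-fold apart, with a median of 0.01. With a stricter floor of 107, which only FBN1 reached, the median was -0.32. COL1A2, COL2A1, COL3A1, COL5A2, COL11A1, FBN2 and MFAP5 were below the floor in both lines on the probe set that represented them. COL1A1 had 94.8 in 786-O and 79.9 in 786-VHL, a difference of -0.21, though another probe set differed by 0.15. The elastin gene ELN had 32.4 and 43.8, a difference of 0.30, the fibrillin gene FBN1 had 117 and 90.5, a difference of -0.32, and the microfibril gene MFAP2 differed by 0.24. Among 6 type IV collagen genes, which build basement membranes, 3 were measured and 0 were 2-fold apart. COL4A1 had 858 and 810, a difference of -0.08, with its other probe set at 0.40. COL4A2 had 1355 and 829, a difference of -0.70 on each of its 2 probe sets. COL4A5 had 28.3 and 48.7, a difference of 0.55.

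Lysine must be hydroxylated for the more stable cross-links to form, and the enzymes and chaperones for this act on collagen in the endoplasmic reticulum. The list held genes for both lysine and proline modification of collagen. Of its 16 genes 15 were on the array under a single symbol and 15 were measured, with 0 at least 2-fold apart and a median of 0.20. The lysyl hydroxylase gene PLOD1 had 233 in 786-O and 442 in 786-VHL, a difference of 0.88. PLOD2, the lysyl hydroxylase that acts on collagen telopeptides, went the other way, with 1826 and 1209 on the brighter probe set and differences of -0.59 and -0.50. FKBP10, which encodes a chaperone needed for telopeptide lysine hydroxylation, had 113 and 50.4, a difference of -0.96. The prolyl hydroxylase gene P3H2 had 550 and 973, a difference of 0.80, and its other probe set differed by 0.08. The collagen galactosyltransferase gene COLGALT1 differed by -0.19 on its brighter probe set and by -1.10 on the other.

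Copper, the metal cofactor, reaches lysyl oxidases in the secretory pathway through the pump ATP7A. Of 7 genes for copper delivery 6 were measured, 0 were 2-fold apart and the median was -0.07. The copper importer gene SLC31A1 had 458 in 786-O and 618 in 786-VHL, a difference of 0.42. ATP7A had 50.9 and 71.4, a difference of 0.38, with its other probe set at 0.16, and the related pump gene ATP7B differed by -0.14.

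**Figure D3:**
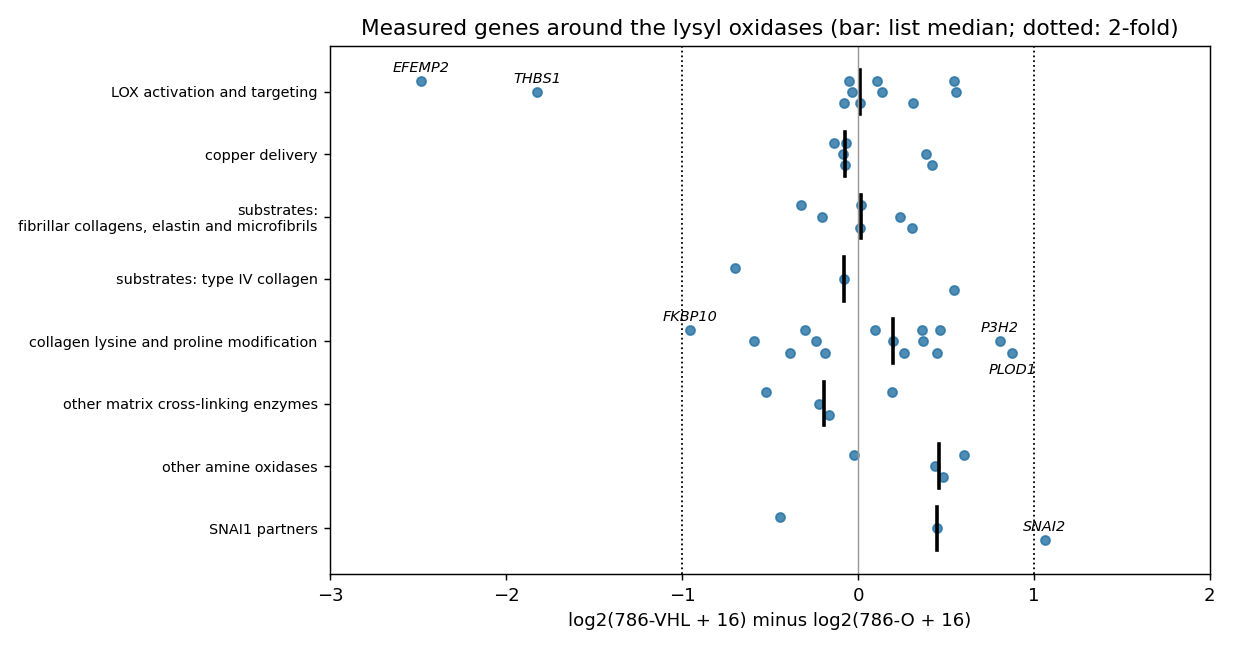
Log2 difference, 786-VHL minus 786-O, of each measured gene in 8 lists around the lysyl oxidases, 1 point per gene, with a bar at each list median and dotted lines at 2-fold. EFEMP2 at -2.48 and THBS1 at -1.82 stand past 2-fold on the lower side and SNAI2 at 1.06 on the upper side, and the vertical offset of points has no meaning.

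**Figure D4:**
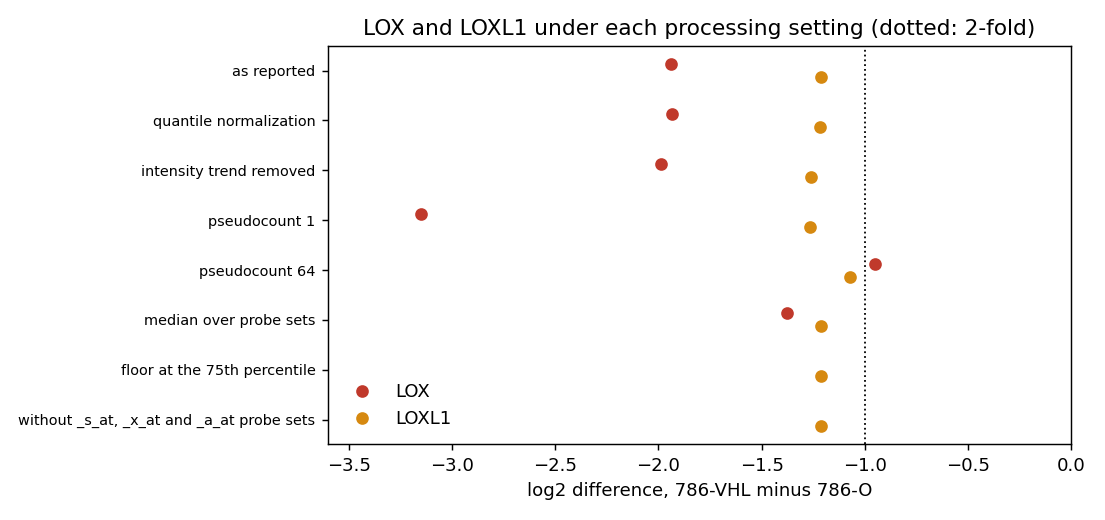
Log2 difference of LOX and LOXL1 on their representing values under each processing setting, with 2-fold dotted. LOX, whose 786-VHL value is below the floor, ranges from -3.15 to -0.95 with the pseudocount and has no value with the floor at the 75th percentile or without suffixed probe sets, and LOXL1 ranges from -1.27 to -1.07.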

How the data were processed

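Total RNA of 1 array per line was measured. The values deposited by the authors are linear intensities, judged from their range. Per the submitters' processing notes R 2.10 was used. How background was corrected, arrays normalized and probes summed is not given in the sources used here. Exactly equal values on both arrays were found in 2127 probe sets (3.89%), 1695 of them at or below the floor, and in 0 member probe sets. Whether that processing altered dim values such as those of LOX was not tested.

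Probe sets were named through the platform annotation and current symbols by Entrez number. A gene was represented by whichever of its single-gene probe sets had the highest mean log2(value + 16). Differences were described by size, at least 2-fold, because 1 array per line allows no test. From each list the 3 measured genes with the largest difference and those at least 2-fold apart are named; others named were chosen after their values were seen. Members and lists were chosen with earlier results of these data known. The steps were tested on simulated data with changes planted in bright genes only, so that test does not cover dim values such as those of LOX. Alternatives were quantile normalization, removal of the intensity trend (lowess, fraction 0.3), pseudocounts of 1 and 64, no floor, a floor of 107 at the 75th percentile, a 1.5-fold size, the median over probe sets, and no suffixed probe sets. Python 3.11.15, numpy 2.4.6, pandas 2.3.3, statsmodels 0.14.6 and matplotlib 3.10.9 were used.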

Additional observations from a re-analysis of the deposited data

How the results depend on the processing

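No paired analysis was possible because there was 1 array per line, and no replicate could be left out. Of 44 planned values of member probe sets 38 moved by less than the SD between probe sets of a gene, 6 by more, those of LOX with another pseudocount, and 0 reversed. Of 64 values of list medians 59 moved by less and 5 by more. LOX as a gene was at -3.15 with a pseudocount of 1, at -0.95 with 64 and at -1.38 by the median over probe sets. With the pseudocount of 64 and with the floor at the 75th percentile, 1 member probe set, that of LOXL1, was at least 2-fold lower. LOX could not be given without suffixed probe sets, since it has none of that kind, nor with the stricter floor, which it does not reach. Around the family, a pseudocount of 64 left 0 genes at least 2-fold higher. Without suffixed probe sets, where fewer probe sets were used, 0 were at least 2-fold lower. The 1.5-fold size gave 5 lower and 4 higher of 52 measured genes. The share of all measured genes at that size is not given here, so these counts are a description only. The array below the floor limits LOX to a lower bound.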

Other observations

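Other enzymes that act on amines or cross-link matrix were read beside the family. Of 8 genes for other amine oxidases 4 were measured and 0 were 2-fold apart, with a median of 0.46, which was 0.02 with no floor. SMOX, which encodes spermine oxidase, had 249 in 786-O and 387 in 786-VHL, a difference of 0.61, and its other probe sets differed by 0.30 and 0.41. The mitochondrial monoamine oxidase gene MAOB differed by 0.48 and the histone demethylase gene KDM1A by 0.44. The copper amine oxidase genes AOC1, AOC2 and AOC3, which use the same metal as lysyl oxidases, were below the floor in both lines. Of 5 genes for other matrix cross-linking enzymes 4 were measured and 0 were 2-fold apart, with a median of -0.19. With the stricter floor of 107, which only TGM2 reached, the median was -0.52. The transglutaminase gene TGM2 had 204 and 137, a difference of -0.52, and its 3 other probe sets lay between -0.66 and -0.16. The peroxidasin gene PXDN, whose product cross-links type IV collagen, differed by -0.22 and the transglutaminase gene TGM5 by 0.19.

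SNAI1, with which LOXL2 and LOXL3 are known to act, was read in a list with other transcription factors and CDH1. Of these 6 genes 3 were measured, with a median of 0.45 that was -0.04 with no floor and 0.08 by the median over probe sets. ZEB2 was below the floor on its representing probe set, but 203603_s_at had 22.8 in 786-O and 12.2, below the floor, in 786-VHL, a difference of -0.46. Measured through its 786-O value alone, 203603_s_at had to be lower in 786-VHL. SNAI2 had 248 in 786-O and 535 in 786-VHL, a difference of 1.06, and SNAI1 had 44.4 and 66.6, a difference of 0.45. The brightest probe set of ZEB1 differed by -0.44, with 321 and 232, whereas another, 210875_s_at, differed by 1.13, with 42.1 and 111. CDH1, the E-cadherin gene that these factors repress, was below the floor in both lines.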
